A study of Mus musculus with 12 samples.

Results

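The 10 genes described here encode proteins that build, cut or protect the extracellular matrix. They are the metalloproteases Mmp9, Mmp13, Mmp14 and Adamts1, the protease inhibitors Timp1 and Timp2, the matrix proteins Fn1, Thbs1 and Tgfbi, and the proteoglycan Vcan. They were chosen by symbol, with their library-scaled counts (CPM) by sort and by route in view, so their values by sort and by route are a description and carry no test. All 10 were among the 31054 features listed in the count matrices.

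Metalloproteases of the Mmp and Adamts families are zinc enzymes that cleave matrix proteins, cell surface proteins and bound growth factors. Timp proteins bind their active sites and block them, so the balance of proteases and inhibitors sets how fast the matrix turns over. In the brain the matrix is rich in proteoglycans and lies in a basement membrane around vessels and in nets around neurons, and macrophages at the brain's borders and cells arriving from blood are known sources of matrix proteases.

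The study asked how cells of donor marrow that settle in the brain compare with resident microglia, and whether the route of dosing matters. C57BL/6J recipients of both sexes were conditioned with busulfan, an alkylating agent that clears marrow, and received lineage-negative stem and progenitor cells of male donors that carried a lentiviral GFP vector (LVV.GFP), either into a vein (i.v.) or into the cerebral ventricles (i.c.v.). All recipients were later also given untransduced total bone marrow i.v. From each brain, CD45+ CD11b+ CX3CR1+ cells were sorted into a GFP+ fraction, taken as donor-derived microglia-like cells (MLCs), and a GFP- fraction, taken as endogenous microglia. Below, MLCs means all kept cells of the GFP+ libraries, including those with neutrophil or monocyte markers. In the paper, robust chimerism of blood and marrow from engineered cells followed i.v. dosing but was not seen after i.c.v. dosing alone. With 1 female and 1 male recipient for each route, 4 mice gave 4 GFP+ and 4 GFP- libraries. An age of 22 to 28 weeks is given in the labels of these mice, whereas the series' design text places collection 12 to 13 months after dosing. A naive mouse of 8 to 12 weeks gave 4 further libraries, 1 each of microglia, astrocytes, neurons and blood.

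UMIs are unique molecular identifiers, 1 per captured transcript, and CPM is UMIs of a gene scaled to the library's total. Fitted log2 differences come from models with a further scaling between libraries (TMM), so they need not equal the log2 ratio of mean CPM. Between the sorts (GFP+ over GFP-), Tgfbi had a ratio of means of 1.99 and a fitted log2 difference of 1.27. For Fn1 these were 0.813 and 0.09. Barcodes were kept from 200 genes up, unless over 10% of their UMIs were mitochondrial. The treated libraries held 2266 to 4555 cells and 4970758 to 16514669 UMIs each, and the naive libraries 341 to 1274 cells and 987965 to 4804709 UMIs. The filter kept 84.5% to 93.9% of the barcodes of each treated library and 13.6% to 51.0% of those of each naive library. Median UMIs per cell were 842 to 1034 in the GFP- libraries and 1058 to 3499 in the GFP+ libraries, the highest in the i.v. female. In the naive libraries they were 425 to 6937, the lowest in microglia. Xist, which is transcribed from the inactive X chromosome of females, stood at 66.2 and 35.4 CPM in the GFP+ libraries of the female recipients and at 3416 and 2890 CPM in their GFP- libraries. In the male recipients Xist stood at 23.8 CPM (i.v.) and 120 CPM (i.c.v.) in the GFP- libraries. Microglial markers (9 genes, among them Tmem119 and P2ry12) summed to 9550 to 13052 CPM in GFP- and to 4559 to 9046 CPM in GFP+ libraries. The i.c.v. female GFP- library stood apart with neutrophil markers (10 genes, among them S100a8 and S100a9) at 6238 CPM, against 57.2 to 1031 CPM in the other GFP- libraries. The naive library labelled as neurons held 19.9 CPM of neuron markers and 56969 CPM of oligodendrocyte markers, and is called the neuron sort here. The naive microglia library held neutrophil markers at 9502 CPM, though 1 of its cells had a UMI of at least 3 of them. That cell held 1.92% of the library's UMIs. Mmp9 had 1 UMI in the library and Thbs1 had 2. Pairs of libraries shared 0 to 8 cell barcodes.

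Promoters were available from RefSeq (GRCm38.p6) for 7 of the 10 genes, as the 250 bases before and 50 bases after the annotated start. Those of Adamts1 and Tgfbi are shown because these 2 genes sit on opposite sides of the sort comparison below. Capitals mark GGGCGG, the core of the GC box bound by SP1, and TATAAA, the TATA box, each on either strand. The Adamts1 window is chr16:85803064-85803363 on the minus strand, and the Tgfbi window is chr13:56609336-56609635 on the plus strand, both written 5′ to 3′ along the gene.
Adamts1: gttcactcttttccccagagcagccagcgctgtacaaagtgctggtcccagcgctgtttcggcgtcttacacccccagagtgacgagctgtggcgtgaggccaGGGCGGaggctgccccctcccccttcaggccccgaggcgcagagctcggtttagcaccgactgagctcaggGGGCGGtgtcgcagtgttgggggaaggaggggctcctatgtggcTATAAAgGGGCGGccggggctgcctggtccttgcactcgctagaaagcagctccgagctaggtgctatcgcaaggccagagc
Tgfbi: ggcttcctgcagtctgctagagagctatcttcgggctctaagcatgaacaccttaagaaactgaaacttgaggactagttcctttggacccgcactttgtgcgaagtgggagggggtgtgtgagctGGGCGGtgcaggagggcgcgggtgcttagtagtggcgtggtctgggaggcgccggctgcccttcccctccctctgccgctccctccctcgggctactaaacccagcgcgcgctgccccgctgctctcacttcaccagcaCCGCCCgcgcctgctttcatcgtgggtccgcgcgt

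Counted from the start base as 0, Adamts1 had GGGCGG at -147, -76 and -25 and TATAAA at -32, and Tgfbi had GGGCGG on either strand at -124 and 15. GGGCGG was also found at -37 in Timp2, at -19 and -13 in Mmp14, at -8 in Timp1 and at -219 and -10 in Vcan, so it was in 6 of the 7 windows and in 35.7% of all 32851 promoters. Mmp13 held no GGGCGG. It held TATAAA at -16, a match found in 13.6% of all promoters and otherwise only in Adamts1 among these 7, and TGANTCA, the AP-1 site, at -35, found in 7.81% of all promoters and in none of the other 6 windows. GAGGAAG, a core of the site of the myeloid factor PU.1, was in 13.6% of all promoters and in none of the 7. All motifs were searched on both strands, no matches overlapped, and they describe letters in a window and no more.

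Adamts1, a secreted metalloprotease that cleaves the proteoglycans aggrecan and versican, was the gene with the widest gap between the sorts among the 10. The gene lies on chromosome 16 at 85793827 to 85803113 (GRCm38, minus strand). In GFP- libraries it stood at 424 and 221 CPM in the i.v. female and male and at 237 and 209 CPM in the i.c.v. female and male. In GFP+ libraries it stood at 17.1 CPM in both i.v. mice and at 101 and 69.4 CPM in the i.c.v. female and male. The highest GFP+ value was below the lowest GFP- value. The mean was 273 ± 102 CPM in GFP- (SD, n = 4) and 51.2 ± 41.5 CPM in GFP+ (SD, n = 4), a ratio of 5.32, and the fitted log2 difference of GFP+ from GFP- was -2.17 (SE 0.55). Among the MLCs both i.v. libraries lay below both i.c.v. libraries, with means of 17.1 and 85.4 CPM, a ratio of 4.99 and a fitted log2 difference of -2.20 (SE 0.31). Among the GFP- libraries the routes differed by 0.43 on the log2 scale (SE 0.29), higher i.v., and by -0.15 without the i.v. female library, which was the highest of the 4. Microglial markers were also lower in both i.v. MLC libraries (5729 and 4559 CPM, female first) than in both i.c.v. MLC libraries (9046 and 7055 CPM), and their part in the Adamts1 difference was not tested. Genes of the dissociation response, the early genes that tissue handling induces, summed to 12922 to 16965 CPM in GFP- and 11811 to 15238 CPM in GFP+ libraries. Naive microglia held 112 CPM (95% Poisson interval 92.4 to 135), between the GFP- and the GFP+ libraries, and naive blood held no Adamts1 UMI, which allows up to 1.14 CPM at 3 counts.

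Mmp14, a membrane-anchored metalloprotease that cleaves collagen and activates pro-Mmp2, lies on chromosome 14 at 54431612 to 54445364 (plus strand) and was higher in MLCs. It stood at 23.1, 28.3, 36.3 and 38.1 CPM in the GFP- libraries of the i.v. female, i.v. male, i.c.v. female and i.c.v. male, in that order. In the same order it stood at 52.0, 57.6, 43.1 and 70.2 CPM in the GFP+ libraries. The lowest GFP+ value was above the highest GFP- value. The means were 55.7 ± 11.3 and 31.5 ± 6.97 CPM (SD, n = 4 each), with a fitted log2 difference of 1.10 (SE 0.21). Naive astrocytes held 59.7 CPM (53.0 to 67.1), which spans the GFP+ mean, naive microglia held 14.2 CPM (7.75 to 23.8), and naive blood 1 UMI. In the MLCs the routes were within 0.05 on the log2 scale (SE 0.23), and the difference was 0.49 without the i.c.v. male GFP+ library.

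Tgfbi, a secreted collagen- and integrin-binding protein induced by TGF-beta and abundant in macrophages, lies on chromosome 13 at 56609523 to 56639562 (plus strand). Its GFP- values were 66.2 and 91.3 CPM i.v. and 126 and 115 CPM i.c.v., female first. Its GFP+ values were 203 and 224 CPM i.v. and 152 and 215 CPM i.c.v. The sorts did not overlap. The means were 198 ± 31.9 and 99.5 ± 26.5 CPM (SD, n = 4 each), a ratio of 1.99, and the fitted log2 difference was 1.27 (SE 0.24). Border macrophage markers (8 genes, listed below) were also higher in GFP+, summing to 839 to 1349 CPM against 409 to 838 CPM in GFP-. Their part in the Tgfbi difference was not tested, and in GFP+ libraries they need not mark border macrophages alone, as described below. Naive microglia, at 129 CPM (107 to 153), lay at the upper end of the GFP- libraries, and naive blood, at 295 CPM (275 to 316), above all 8 treated libraries. Of the 127 Tgfbi UMIs in naive microglia, 61 lay in 14 cells of the border macrophage class described below. The cells of no class in that library stood at 76.1 CPM.

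Timp2, an inhibitor of metalloproteases that also takes part with Mmp14 in activating pro-Mmp2, lies on chromosome 11 at 118301069 to 118355740 (minus strand) and overlaps Cep295nl on the same strand. It stood at 507 and 581 CPM i.v. and 633 and 639 CPM i.c.v. in GFP-, female first, and at 847 and 773 CPM i.v. and 930 and 1063 CPM i.c.v. in GFP+. All 4 GFP+ libraries were above all 4 GFP- libraries, with a fitted log2 difference of 0.89 (SE 0.14). Both i.v. MLC libraries were below both i.c.v. MLC libraries, by 0.19 on the log2 scale (fitted difference -0.19, SE 0.15). Without the i.c.v. male GFP+ library the difference was -0.06, and without the i.c.v. female GFP+ library -0.32. Naive microglia held 440 CPM (400 to 484), below every GFP- library, and naive astrocytes 59.5 CPM (52.8 to 66.8).

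Of the 8 genes that passed the filter on low counts in the sort comparison (Timp1 and Vcan did not), Adamts1, Mmp14, Tgfbi and Timp2 had sorts that did not overlap, beside 38.9% of all 11756 genes tested. The same 4 passed the model's threshold, beside 32.5% of all genes tested. Since sort values chose the genes, nothing is read from either count.

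**Figure D1:**
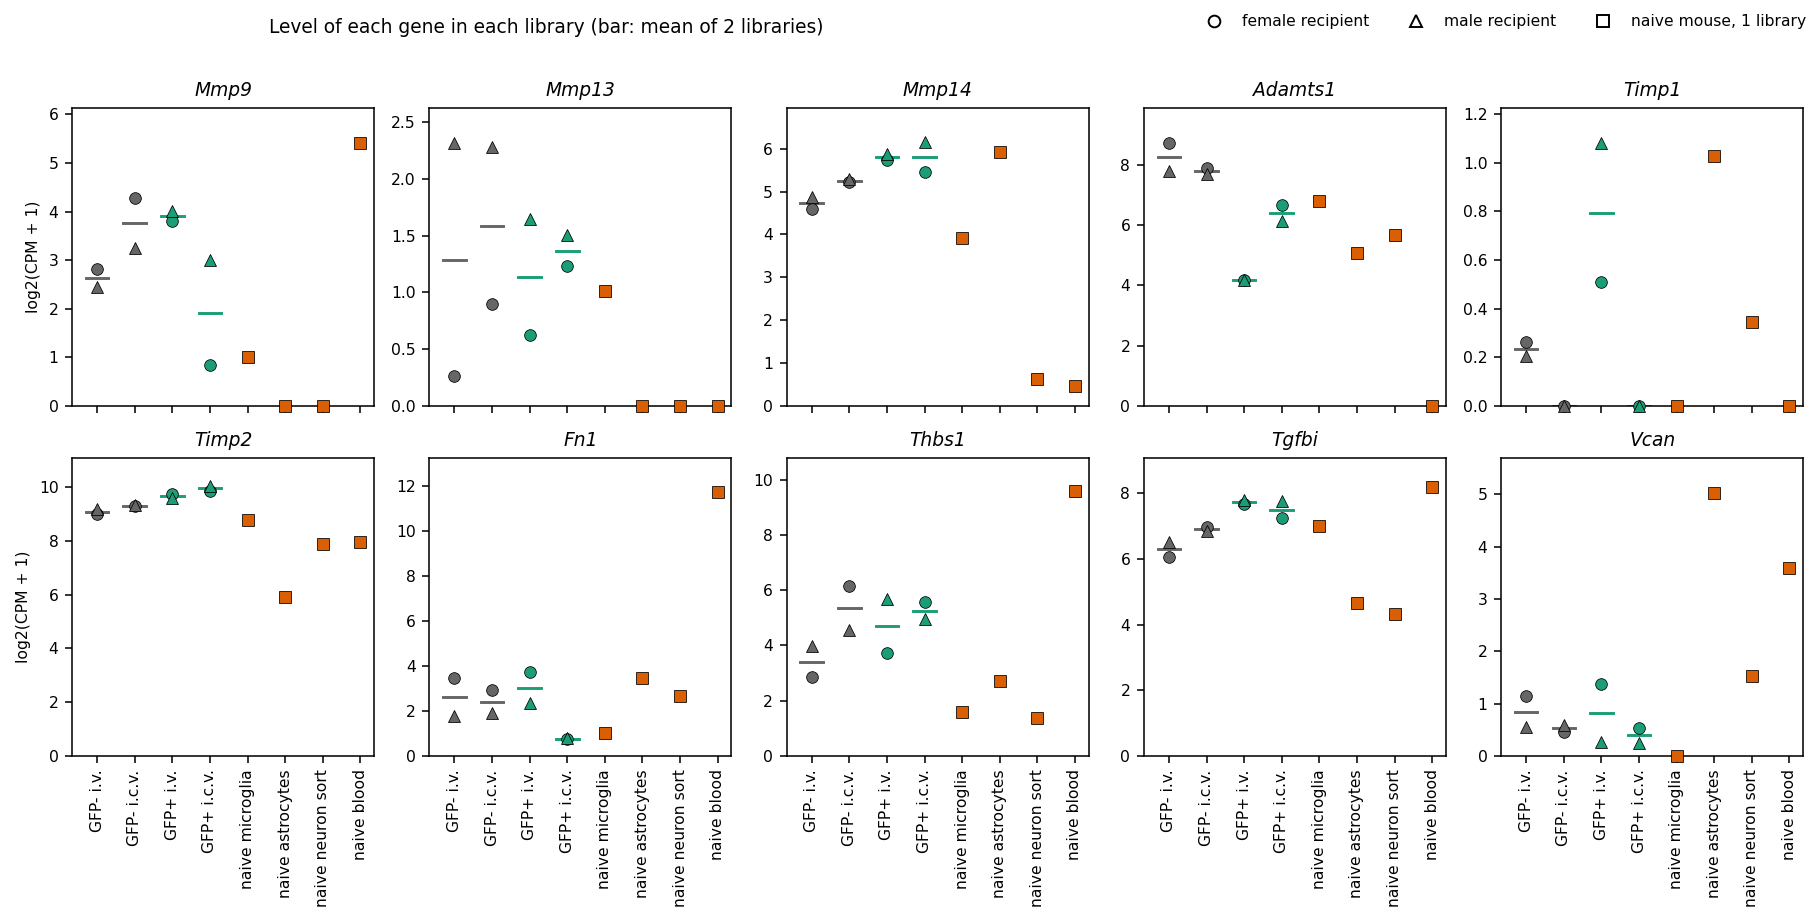
Levels of the 10 genes in all 12 libraries, as log2(CPM + 1), with circles for female recipients, triangles for male recipients, squares for the naive mouse and bars for the mean of 2 libraries. Adamts1 lies at 17.1 CPM in both i.v. MLC libraries against 209 to 424 CPM in the GFP- libraries, and Fn1 and Thbs1 are highest in naive blood (3357 and 759 CPM).

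Fn1, or fibronectin, a large adhesive glycoprotein of plasma and matrix, lies on chromosome 1 at 71585520 to 71653200 (minus strand). It stood at 10.1 and 2.45 CPM i.v. and 6.54 and 2.70 CPM i.c.v. in GFP-, female first, and at 12.1 and 4.15 CPM i.v. and 0.679 and 0.734 CPM i.c.v. in GFP+. Within the MLCs the i.v. libraries (241 UMIs in all) lay above the i.c.v. libraries (14 UMIs in all), with a ratio of means of 11.5 and a fitted log2 difference of 3.63 (SE 0.86), or 2.64 without the i.v. female GFP+ library. The sorts as a whole overlapped, with means of 4.42 CPM in GFP+ and 5.44 CPM in GFP-. The fitted difference was 0.09 (SE 0.85), and it stood at -1.23 without the i.v. female GFP+ library. Naive blood held 3357 CPM (3287 to 3427).

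Fn1 UMIs came from few cells. In the i.v. female MLC library 200 UMIs lay in 29 cells, of which 1 held 51, and in the GFP- library of the same mouse 50 UMIs lay in 8 cells, of which 1 held 27. Cells with at least 3 monocyte markers (8 genes, among them Ly6c2 and Ccr2) and under 3 neutrophil markers numbered 75 and 36 in the i.v. MLC libraries and 0 in both i.c.v. MLC libraries, and they held 141 of the 241 Fn1 UMIs of the i.v. MLCs. Without cells that carried neutrophil or monocyte markers, Fn1 stood at 5.61 and 1.41 CPM in the i.v. MLCs, still above both i.c.v. values, and the fitted log2 difference between the routes was 2.44. Fn1 was then lower in GFP+ than in GFP- in 4 of 4 mice, the i.v. GFP- values being 8.54 and 2.46 CPM. In the i.v. female GFP- library, 1 cell with border macrophage markers held 27 of the 42 UMIs left. In the cells of no class (classes are described below) the i.v. female stood at 6.54 CPM in GFP+ against 3.21 CPM in GFP-. The other mice were lower in GFP+ in those cells too.

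Mmp9, or gelatinase B, a secreted protease stored in neutrophil granules, lies on chromosome 2 at 164940780 to 164955850 (plus strand). It stood at 6.04 and 4.44 CPM i.v. and 18.5 and 8.49 CPM i.c.v. in GFP-, female first. In GFP+ it stood at 13.0 and 15.1 CPM i.v. and at 0.792 and 6.97 CPM i.c.v. The sorts overlapped, at 8.95 ± 6.44 CPM in GFP+ and 9.37 ± 6.31 CPM in GFP- (SD, n = 4 each). Both i.v. MLC libraries were above both i.c.v. MLC libraries, with a fitted log2 difference of 1.89 (SE 0.68) that stood at 4.26 without the i.c.v. male GFP+ library. In the MLC libraries neutrophil markers moved with this, at 1676 and 3371 CPM i.v. and at 1.02 and 0.917 CPM i.c.v. The i.v. MLC libraries held 14 and 25 cells with at least 3 such markers, and the i.c.v. MLC libraries 0. Without cells that carried neutrophil or monocyte markers, Mmp9 stood at 5.67 and 3.25 CPM in the i.v. MLCs, inside the range of the i.c.v. MLCs, and the fitted difference was 0.26. In the i.c.v. female GFP- library the value without those cells was 5.05 CPM in place of 18.5 CPM.

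Thbs1, or thrombospondin 1, a matrix protein of platelets and macrophages that binds CD36 and CD47 and activates TGF-beta, lies on chromosome 2 at 118111876 to 118127133 (plus strand). Its GFP- values were 6.24 and 14.6 CPM i.v. and 69.6 and 22.2 CPM i.c.v., female first, and its GFP+ values were 12.1 and 49.9 CPM i.v. and 46.3 and 29.7 CPM i.c.v. It was higher in GFP+ in 3 of 4 mice, with a fitted log2 difference of 0.50 (SE 0.67) that ranged from 0.17 without the i.v. female GFP- library to 1.53 without the i.c.v. female GFP- library. Without cells that carried neutrophil or monocyte markers it was higher in GFP+ in 4 of 4 mice, the i.c.v. female GFP- value being 32.6 CPM. In the GFP- libraries both i.v. values lay below both i.c.v. values, with a fitted log2 difference of -2.24 (SE 0.78), and of -1.16 without the i.c.v. female library. In the MLCs the routes overlapped. Without the marker-carrying cells the i.v. MLCs stood at 7.09 and 23.5 CPM, below both i.c.v. MLC libraries, and the fitted route difference moved from -0.19 to -1.25. Leaving out the i.v. male GFP+ library alone gave -1.54. Naive blood held 759 CPM (726 to 793).

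Mmp13, Timp1 and Vcan had at most 30 UMIs in any treated library. Mmp13, or collagenase 3 (chromosome 9, 7272514 to 7283331, plus strand), ranged from 0.201 to 3.98 CPM, and 21 of the 26 UMIs among the i.v. male GFP- cells lay in 1 cell. Timp1 (chromosome X, 20870166 to 20874735, plus strand, within Syn1 on the minus strand) had 20 UMIs in all 8 treated libraries, of which 18 were in the i.v. MLCs and 14 in cells with monocyte markers. Both sorts of both i.c.v. mice held none. Vcan, or versican (chromosome 13, 89655312 to 89742509, minus strand), had 50 UMIs in the treated libraries, of which 26 lay in the i.v. female MLCs. Naive astrocytes held Vcan at 31.4 CPM (26.6 to 36.9) and Timp1 at 5 UMIs.

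**Figure D2:**
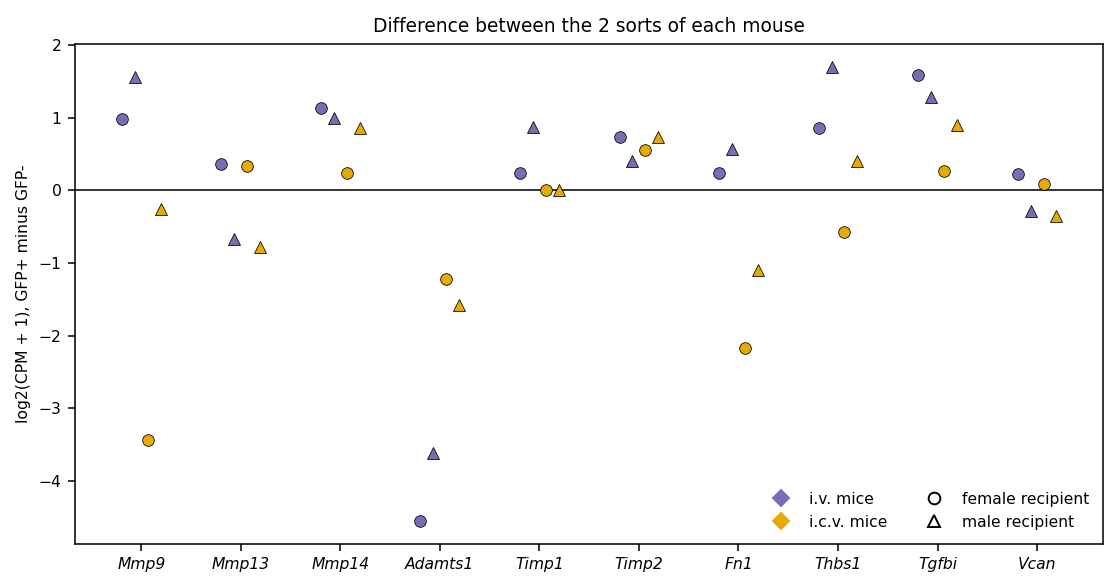
Difference in log2(CPM + 1) between the GFP+ and the GFP- library of each mouse, by gene, with colours for the route and shapes for recipient sex. Mmp14, Timp2 and Tgfbi lie above 0 and Adamts1 below 0 in 4 of 4 mice, whereas Mmp9 and Fn1 lie above 0 in both i.v. mice and below 0 in both i.c.v. mice.

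By route, 9 of the 10 genes passed the filter on low counts (Timp1 did not). In the MLCs Adamts1 was the 1 of these 9 that passed the model's threshold, beside 2.78% of 12540 genes, and as route values also chose the genes nothing is read from it. In the GFP- libraries 0% of the 12540 genes passed (edgeR), with 1063 of them at an unadjusted p under 0.05, and DESeq2 called 1 higher and 69 lower.

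Recipient sex was not part of the choice of genes and was tested. No gene of the 9 differed between female and male recipients in GFP+ (edgeR's quasi-likelihood test, 0% of 12540 genes called) or in GFP- (0.0319% called), and none had a sex difference that depended on the sort (0.0239% called). At an unadjusted p under 0.05 there was 1 gene in GFP+ (Vcan), 1 in GFP- (Mmp13) and 0 for the dependence on sort, and DESeq2 called none of them either. Over the 8 libraries an exact two-sided permutation test of log2(CPM + 1), 4 female against 4 male libraries, gave p = 0.0286 for Mmp13, the smallest p that these 70 splits allow, and p = 0.286 after Benjamini-Hochberg adjustment over the 10 genes. Mmp13 averaged 0.742 CPM in female and 2.95 CPM in male recipients, and the groups did not overlap. In the i.v. male GFP- library 25 of the 26 Mmp13 UMIs lay in 3 cells, most of them in 1, so this lack of overlap can hang on a single cell. The other 9 genes gave an exact permutation p of 0.171 or more. Each mouse gave 2 of the 8 libraries, and an exact test of 2 mice against 2 cannot go below p = 0.333.

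Within libraries, cells were split by markers that include none of the 10 genes, and the counts of each class were summed per library. The neutrophil class had a UMI of at least 3 of the 10 neutrophil markers. It numbered 77 of the 27439 cells, and 4 libraries held at least 10 such cells (14 and 25 in the i.v. female and male MLCs, 21 and 11 in the i.c.v. female and male GFP-). In these, Mmp9 stood at 798 to 1661 CPM in the neutrophil class and at 3.08 to 5.55 CPM in the other cells, higher in 4 of 4 libraries by 8.12 on the log2 scale (SE 0.47, adjusted p = 4.69e-65, edgeR). Thbs1 stood at 435 to 2220 CPM against 10.2 to 36.0 CPM, higher in 4 of 4 libraries by 5.74 (SE 0.43, adjusted p = 1.06e-38, edgeR). Both p-values rest on 4 libraries with 11 to 25 such cells each, and on a spread that the model shares across genes. Their size is therefore no measure of replication. Over all 8 treated libraries these 77 cells held 395 of 721 Mmp9 UMIs (54.8%) and 523 of 2288 Thbs1 UMIs (22.9%), with 0.526% of all UMIs.

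The remaining genes were not higher in the neutrophil class. Adamts1 and Mmp14 had 0 UMIs there in these 4 libraries, which at 3 counts over the 4 classes makes Adamts1 at least 11.9-fold lower and Mmp14 at least 5.99-fold lower than in the other cells (95.3 and 48.1 CPM). Both entered the test through the other cells alone, so their calls are not counted. Timp2 stood at 175 to 382 CPM in the class and 640 to 849 CPM in the other cells, lower in 4 of 4 libraries by 1.11 (fitted log2 difference -1.11, SE 0.38, adjusted p = 0.0173, edgeR). The median over all genes tested in this comparison was -1.08, so Timp2 was at the level of the typical gene, and under upper-quartile normalization, where that median was -0.77, its difference was -0.74 with an adjusted p of 0.152. The Timp2 call was also lost without the i.c.v. male GFP- library (-0.98, adjusted p = 0.0998) and without the i.v. male GFP+ library (-1.25, adjusted p = 0.0999, edgeR), and with a rule of 2 or 4 markers (-0.61 and -1.01, adjusted p = 0.112 and 0.0867). Fn1 had 0 UMIs in the class and 7.52 CPM in the other cells, under the 8.03 CPM that 3 counts would give. It too entered through the other cells alone, so no bound is given and its test is not counted. Tgfbi, at 109 to 185 CPM in the class, did not pass (0.20, SE 0.38, adjusted p = 0.707). Over all 11079 genes tested 8.8% were called higher and 14.8% lower.

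The border macrophage class, named for macrophages of the meninges, choroid plexus and perivascular space, had a UMI of at least 3 of 8 markers (Lyve1, Cd163, Mrc1, Pf4, Cbr2, Folr2, F13a1 and Cd209f) and under 3 neutrophil and monocyte markers. It held 51 to 343 cells in each of the 8 treated libraries, 1380 in all. Its cells were deeper than the rest, with a median of 2755 to 7480 UMIs. The paper reports Mrc1 and Pf4 as enriched in the clusters that held mostly GFP+ MLCs. The class may therefore include other MLCs with deep counts in the GFP+ libraries, which was not tested. A UMI of exactly 2 markers was found in 470 to 820 cells of each GFP+ library, and of exactly 3 in 102 to 202. In the GFP- libraries these numbers were 54 to 346 and 16 to 91. Mmp9 was higher in this class in 8 of 8 libraries, at 4.89 to 87.6 CPM against 0.256 to 17.7 CPM in the other cells, by 2.55 on the log2 scale (SE 0.50, adjusted p = 0.00194, edgeR). The call was lost when 2 markers sufficed (0.85, adjusted p = 0.287, edgeR) and the difference ranged from 0.85 to 3.31 over all alternatives. The class held 254 of the 721 Mmp9 UMIs, and the cells of no class held Mmp9 at 0.9 ± 0.7 CPM in GFP+ and 1.4 ± 1.0 CPM in GFP- (SD, n = 4 each).

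Tgfbi was higher in the border macrophage class in 8 of 8 libraries, at 224 to 407 CPM against 54.5 to 213 CPM, by 1.42 (SE 0.26, adjusted p = 0.00118, edgeR). Adamts1 was lower in 8 of 8 libraries, at 4.53 to 70.0 CPM against 19.0 to 443 CPM (fitted log2 difference -2.16, SE 0.18, adjusted p = 2.22e-06, edgeR). Both calls held under every alternative run, with ranges of 1.25 to 1.57 for Tgfbi and -2.67 to -1.62 for Adamts1. The other genes tested gave no call. Timp2 differed by 0.28 (SE 0.11, adjusted p = 0.0675), Mmp13 by 2.00 (SE 0.87, adjusted p = 0.0941), Thbs1 by -0.63 (SE 0.35, adjusted p = 0.183) and Mmp14 by 0.01 (SE 0.20, adjusted p = 0.979, edgeR). Some of these changed with the setting. Mmp14 was called higher with 2 markers (0.47, adjusted p = 0.0348) and lower with 4 (-0.73, adjusted p = 0.0241), and Mmp13 was called with 4 (3.19, adjusted p = 0.00745, edgeR). The Mmp13 difference ranged from 0.26 to 3.19 over all alternatives, and 25 of the 44 Mmp13 UMIs of the class lay in 3 cells of the i.v. male GFP- library. Timp2 was called with 2 markers (1.01, adjusted p = 8.75e-05), with all deposited barcodes (0.29, adjusted p = 0.0428) and with DESeq2 (0.27, adjusted p = 0.0266). Fn1 differed by -0.72 (SE 1.09, adjusted p = 0.661, edgeR), and 27 of the 28 Fn1 UMIs of the class lay in 1 cell of the i.v. female GFP- library. Without that library the class was near 0 counts, and Fn1 was measured through the other cells, so its call there is not counted. With 2 markers Fn1 was called lower (-3.46, adjusted p = 0.000205, edgeR). Without the i.c.v. male GFP- library Thbs1 was called, at -0.97 with an adjusted p of 0.0305. Of 8 genes tested 2 were higher and 1 lower, beside 13.6% and 17% of 11587 genes, and the median of the 8 was 0.15 against -0.06 over all genes.

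The sorts are set side by side inside and outside the border macrophage class as values without a test. Tgfbi in the cells of no class stood at 185 ± 29.4 CPM in GFP+ and 80.6 ± 24.4 CPM in GFP-, whereas in the border macrophage class it stood at 275 ± 46.2 and 327 ± 63.2 CPM, where the 2 sorts overlapped (SD, n = 4 each). Adamts1 stood at 57.8 ± 45.3 CPM in GFP+ and 293 ± 105 CPM in GFP- in the cells of no class. In the border macrophage class it stood at 13.3 ± 10.4 and 43.5 ± 21.9 CPM. There too the 2 sorts overlapped (4.53 to 26.5 CPM in GFP+ and 18.6 to 70.0 CPM in GFP-). Timp2 was higher in GFP+ in both, at 933 ± 116 against 589 ± 62.8 CPM and at 910 ± 71.1 against 674 ± 41.1 CPM.

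**Figure D3:**
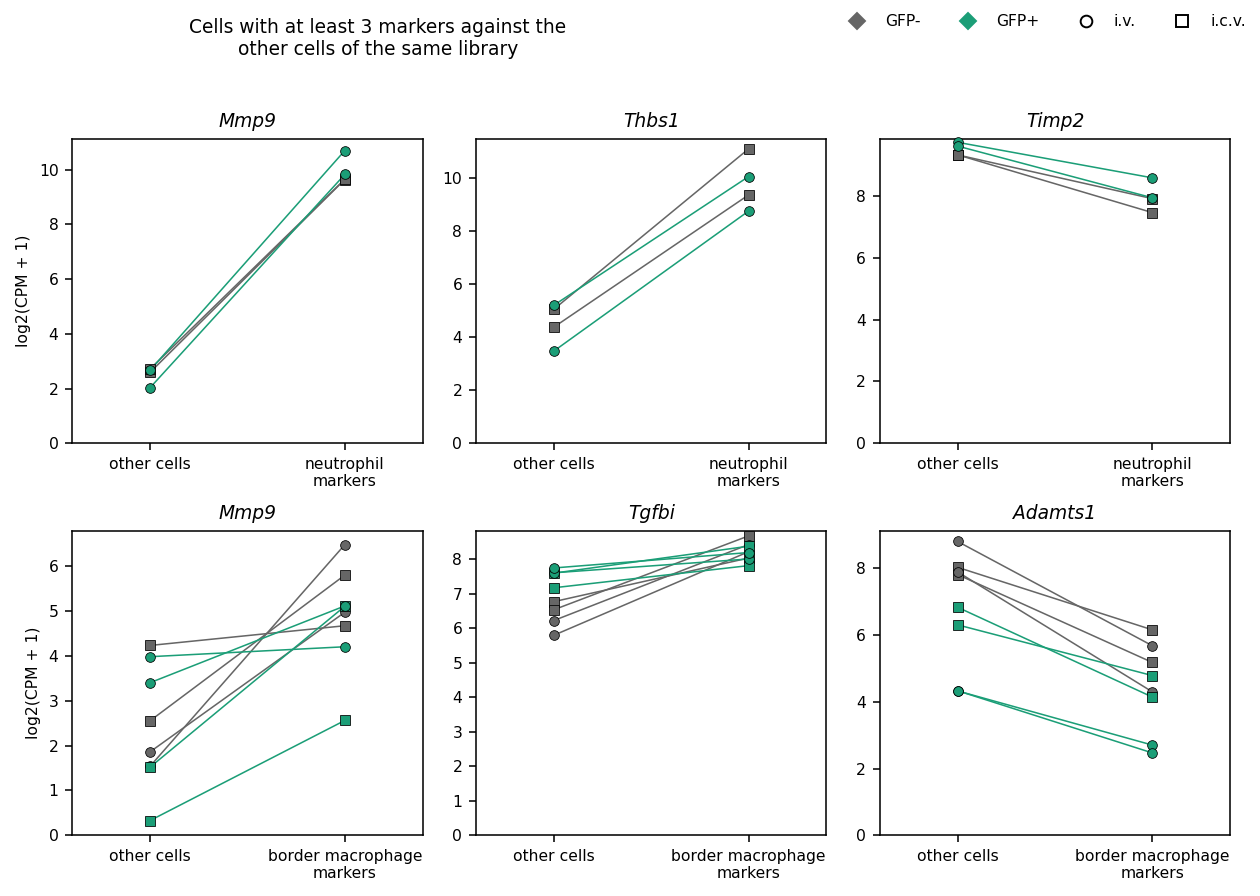
Level, as log2(CPM + 1), in cells with at least 3 neutrophil markers (top, 4 libraries) or border macrophage markers (bottom, 8 libraries) and in the other cells of the same library, with a line per library. For the neutrophil markers every line rises for Mmp9 and Thbs1 and falls for Timp2, and for the border macrophage markers every line rises for Mmp9 and Tgfbi and falls for Adamts1.

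The monocyte class reached 10 cells in 2 libraries, both i.v. MLCs, and was not tested at 3 markers. In these 2 libraries its 111 cells were 1.98% of the cells and held 5.50% of all UMIs. They held 58.5% of the Fn1 UMIs, 72.2% of the Timp1 UMIs (13 of 18) and 67.9% of the Vcan UMIs (19 of 28). Fn1 stood at 97.1 CPM in the class and 4.01 CPM in the other cells, Thbs1 at 132 and 20.1 CPM, Tgfbi at 228 and 210 CPM, Mmp14 at 23.4 and 55.9 CPM, and Timp2 at 46.2 and 864 CPM. When 2 markers sufficed, 5 libraries could be tested (edgeR), and 18.4% of 11470 genes were called higher and 21.9% lower. Fn1 was higher by 4.59 (SE 0.52, adjusted p = 4.18e-07), Thbs1 by 1.71 and Tgfbi by 1.18. Adamts1 (-3.74) and Timp2 (-1.82) were lower, and Mmp14 was not called. Mmp13 was called higher under this rule (3.78), but at 3 markers none of its 126 UMIs lay in the monocyte class. Timp1 passed the filter on low counts through this class alone, and Mmp9 through the other cells, so their calls are not counted. In naive blood, where 138 of 341 cells fell in the monocyte class, the class held 28 of 29 Vcan UMIs and 69.5% of the Tgfbi UMIs, but 35.8% of the Fn1 UMIs with 47.8% of all UMIs. The neutrophil class of blood (25 cells) held 94 of 109 Mmp9 UMIs and 700 Fn1 UMIs, of which 698 were in 1 cell.

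**Figure D4:**
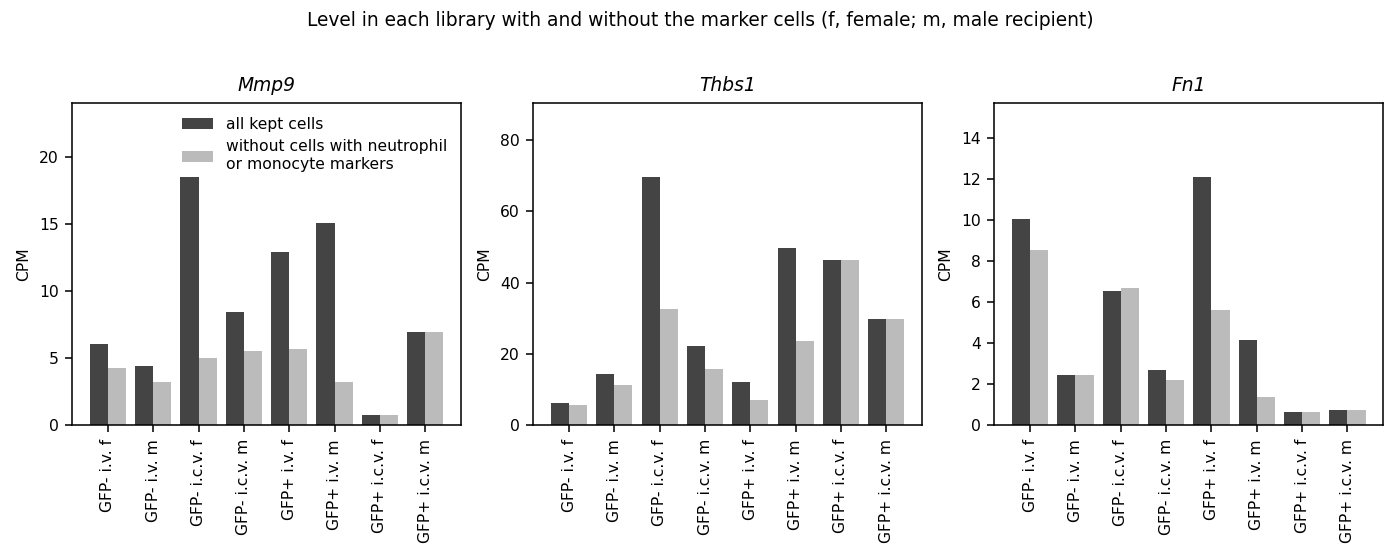
CPM of Mmp9, Thbs1 and Fn1 in each treated library over all kept cells (dark bars) and without cells carrying at least 3 neutrophil or monocyte markers (light bars). For Mmp9 the dark bar of the i.c.v. female GFP- library (18.5 CPM) and those of the i.v. MLCs (13.0 and 15.1 CPM) shrink to 5.05, 5.67 and 3.25 CPM, while the i.c.v. MLC bars are equal.

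Genes whose levels followed these most closely over the 8 treated libraries, among 5960 genes with a mean of at least 20 CPM, are given as a description. All 8 libraries share the same split of sorts, and depth differed among them. Mmp14 was closest to Tnfsf12 (r = 0.98) and Gltp (r = 0.98), Adamts1 to Nfrkb and Clcn3 (r = 0.99 each), Timp2 to Il10rb and Asah1 (r = 0.99 each), Thbs1 to Eif2ak1 (r = 0.97) and Arl5c (r = 0.95), and Tgfbi to Dynll1 and Cxcl16 (r = 0.99 each). Within the 10 genes, Mmp14 and Tgfbi had r = 0.97, Mmp14 and Timp2 r = 0.90, and Adamts1 and Tgfbi r = -0.89.

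Around these 10 genes, 129 other matrix genes were examined in 7 role lists, and here the sort and route comparisons were tested. Between the sorts 71 of them could be tested, and 13 were higher and 19 lower in GFP+ (45.1% called, beside the 32.5% of all genes given above), with a median log2 difference of 0.15 against 0.01 over all genes. In Postn and Mmp15, both lower, no GFP+ library reached the 1.18 CPM of the filter on low counts. Of the 69 genes that reached it in a library of each sort 13 were higher and 17 lower (43.5% called, beside 31.6% of all such genes). Among 13 metalloproteases 3 were higher (Adam9, Adam19 and Adamts10) and 2 lower (Adam15 and Mmp15). Of 8 other matrix proteases Ctss and Hpse were higher and Htra3 and Ctsl lower. Of 7 inhibitors 2 were lower (Serpine2 and Spint1), and of 7 proteoglycan genes 1 was lower (Chst11). Of 13 matrix proteins Emilin1, Col14a1, Thbs2 and Ltbp3 were higher and Postn, Nid2, Lamb2 and Sparc lower. Of 7 crosslinking genes P4ha2 was higher and Plod1, Plod3 and Loxl3 lower. Of 16 matrix receptors Itga4, Bsg and Cd47 were higher and Itgav, Tgfbr1, Lrp1, Itgb3 and Itgb5 lower.

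Values are given for the called genes with the largest fitted differences, up to 3 in each direction, among those with a mean of 20 CPM or more on the higher side and 1 direction in 4 of 4 mice. Only 2 higher genes met this. Itga4, the alpha 4 integrin subunit that leukocytes use to cross vessel walls, stood at 140 ± 27.8 CPM in GFP+ and 42.7 ± 19.2 CPM in GFP- (log2 difference 1.97, SE 0.34, adjusted p = 0.0038, edgeR). Adam9, a membrane metalloprotease, stood at 34.4 ± 6.73 against 29.7 ± 3.44 CPM (0.48, SE 0.15, adjusted p = 0.0403), a call lost under 7 of 15 alternatives. Itgb3, the beta 3 integrin subunit, stood at 2.86 ± 1.60 against 29.7 ± 7.47 CPM (-3.12, SE 0.32, adjusted p = 0.000477). Sparc, a collagen-binding matrix protein made by microglia, stood at 430 ± 162 against 1519 ± 470 CPM (-1.54, SE 0.28, adjusted p = 0.00508), and Adam15 at 69.5 ± 5.42 against 154 ± 23.8 CPM (-0.86, SE 0.10, adjusted p = 0.000832, SD and n = 4 throughout). The number higher was 5 without the i.v. male GFP- library, 6 without the i.c.v. male GFP-, and 8 without either the i.v. female GFP- or the i.c.v. male GFP+ library.

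Between the routes in MLCs 81 of the 129 genes could be tested, and 7 were higher i.v. and 1 lower (9.88% called, beside 2.78% of all genes), with a median of -0.13 against 0 over all genes. The 7 were the matrix receptors Cd44, Cd47 and Ddr1, the matrix protein Emilin2, the inhibitor Spint2 and the metalloproteases Mmp8 and Mmp25, and the 1 was the collagen receptor Mrc2. Of these, Ddr1, Mmp8, Mmp25 and Mrc2 reached the 1.18 CPM of the filter in no library of the lower group. Of the 64 genes that reached it in an MLC library of each route 4 were called, all higher i.v. (6.25%, beside 2.05% of all such genes). Cd44, the hyaluronan receptor, stood at 55.4 ± 30.1 CPM i.v. and 7.41 ± 1.19 CPM i.c.v. (SD, n = 2 each, log2 difference 2.99, SE 0.41, adjusted p = 0.0077, edgeR). Emilin2 stood at 21.1 ± 6.91 against 2.52 ± 2.28 CPM (a log2 difference of 2.41 to 4.66 over the alternatives run, adjusted p = 0.0183) and Cd47, a receptor of thrombospondin 1, at 262 ± 5.30 against 185 ± 11.5 CPM (0.61, SE 0.13, adjusted p = 0.0426, n = 2 each, edgeR). Without cells that carried neutrophil or monocyte markers 2 genes were higher (Cd44 and Spint2) and Mrc2 was lower. Without the i.c.v. female MLC library none was called, without the i.v. male MLC library 3 were higher, without the GFP- library of either i.c.v. mouse 4 were higher, and without the i.v. female MLC library none was lower. Cd47 was lost under 11 of 15 alternatives and Emilin2 under 4. In GFP- libraries none of the 81 was called, with 13 at an unadjusted p under 0.05 (edgeR), beside 1063 of all 12540 genes, and 4 called lower by DESeq2, beside 69 of all genes.

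**Figure D5:**
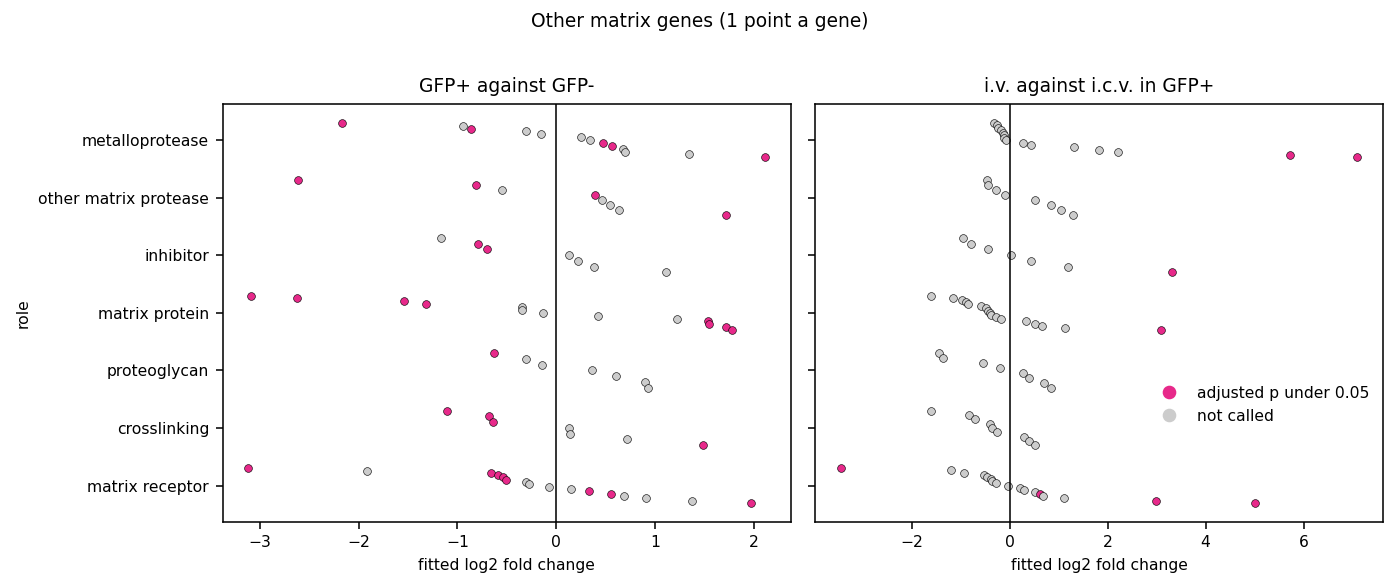
Fitted log2 differences of the other matrix genes by role, 1 point a gene, for GFP+ against GFP- (left, 71 genes) and for i.v. against i.c.v. within GFP+ (right, 81 genes), with coloured points for an adjusted p under 0.05. Called genes lie on both sides of 0 in the left panel (13 higher, 19 lower), and on the right 7 of 8 lie above 0.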

How the data were processed

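Droplet 3′ libraries (10x) were processed by the authors with Cell Ranger (version 3.1.0 per the file headers) on mm10, and the deposited values are raw UMI counts per gene and barcode, with no normalization. The vector's GFP was counted as an added gene. Here, a barcode was kept if it had 200 genes or more and no more than 10% of mitochondrial UMIs, no doublets were removed, and counts were summed per library, since cells are not replicates. CPM divides by the library's summed UMIs. UMI counts at the 3′ end do not allow levels to be compared between genes.

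The 10 genes and all lists were chosen with earlier results of these data known. edgeR 4.0.16 (R 4.3.3; TMM, filterByExpr, quasi-likelihood F test, Benjamini-Hochberg at 0.05 over all genes) gave fits and SEs, checked on simulated counts with known changes; DESeq2 1.42.0 was an alternative. Class comparisons used the library as a block and libraries with at least 10 cells of the class. Single libraries have exact 95% Poisson intervals, and a count of 0 a floor of 3 counts, both covering counting error only. Of the other matrix genes, those named with values had the largest fitted differences (up to 3 in each direction) among calls that averaged 20 CPM or more on their higher side and moved alike in 4 of 4 mice, or whose route groups did not overlap.

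Pairing comes from the labels, which give 1 mouse number to both sorts of a brain. The deviations of the 2 sorts from their group means correlated at 0.21, -0.28, -0.33 and 0.01 in the 4 mice. Gene positions are those of GENCODE M21 (GRCm38). How UMIs in stretches shared by overlapping genes were assigned is not given in the sources used here. Separate mice are the replicates, with 2 per route.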

Additional observations from a re-analysis of the deposited data

Results flagged for a closer look

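Adamts1 in the i.v. female GFP- library was at 424 CPM, and its gap to the next library took up most of the range of the 4 GFP- libraries. Chance flags about 1 in 20 groups by this measure, and 20 groups (10 genes in 2 sorts) were looked at.

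Over all kept cells, Mmp9 and Fn1 differed between the sorts in opposite directions by route. The log2 ratio of mean CPM in GFP+ over GFP- was 1.42 for Mmp9 in the 2 i.v. mice and -1.80 in the 2 i.c.v. mice. For Fn1 it was 0.38 in the i.v. and -2.71 in the i.c.v. mice. Each mouse of a route moved the same way over all kept cells, and the difference between the routes was not tested. Without cells carrying neutrophil or monocyte markers the mice of a route no longer stood opposite to those of the other. Fn1 was then lower in GFP+ in 4 of 4 mice, at 5.61 against 8.54 and 1.41 against 2.46 CPM in the i.v. female and male. For the i.v. female this direction hangs on 1 GFP- cell with border macrophage markers, which held 27 of the 42 UMIs left. In the cells of no class that mouse was higher in GFP+, at 6.54 against 3.21 CPM, and the other mice were lower in GFP+. Mmp9 was then at 0.792 against 5.05 CPM in the i.c.v. female and 6.97 against 5.58 CPM in the i.c.v. male, and at 5.67 against 4.27 CPM in the i.v. female and 3.25 against 3.23 CPM in the i.v. male, so that for Mmp9 the i.c.v. male alone had changed direction.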

How the results depend on the processing

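Among the other matrix genes, the i.v. against i.c.v. comparison in MLCs (7 higher, 1 lower) gave 4 higher with all deposited barcodes, 4 with the GFP+ libraries alone and 2 without cells carrying neutrophil or monocyte markers (an alternative chosen after seeing the data), and 5 lower with DESeq2 and 4 lower with no filter on low counts. In GFP- (0 lower) DESeq2 gave 4 lower and no filter on low counts 3. Leaving out 1 library at a time gave 5 to 14 higher and 13 to 23 lower between the sorts, 0 to 7 higher and 0 to 2 lower between routes in MLCs, and 0 to 1 lower in GFP-. In the border macrophage class 2 of the 10 genes were lower with at least 2 or at least 4 markers and 1 to 2 when a library was left out. Mmp14 there turned to -0.73 with at least 4 markers. With the mouse as a replicate block, 10 of the other matrix genes were higher and 20 lower between the sorts, and the block moved no count by more than 1.5 times. The cause of these shifts was not tested. Mmp13, Timp1 and Vcan, with at most 30 UMIs in a treated library, are limited by depth, and single cells can set their values.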
